A study of Mus musculus with 17 samples.

Results

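The promoter regions described here are those where mouse brain carried more H3K27ac after a 6-OHDA lesion, a model of Parkinson disease, than after sham surgery. H3K27ac was measured by CUT&RUN, in which an antibody directs a nuclease to the mark and the released DNA is sequenced. Of 11424 regions in the table, 880 (7.70%) had a signal of at least 1 in any group and a ratio (6-OHDA + 1)/(sham + 1) of at least 2. These gained regions were assigned to 825 genes, which is 11.4% of the 7253 genes with any region. The same rule in the opposite direction gave 512 lost regions. The 6-OHDA column ran higher than the sham column over all regions, with medians of 16.4 and 14.9. With columns scaled to equal medians 620 regions were gained, and lost regions were not counted again. The gained regions were chosen by their sham and 6-OHDA signals, so these values are given as a description without a test.

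All mice were wild-type ICR animals, 8 weeks old at the lesion, and brain tissue was taken from 3 groups: sham-control, 6-OHDA, and 6-OHDA with NDST3 treatment. 6-OHDA, a toxin taken up by catecholamine neurons, was injected into the substantia nigra on 1 side at 10 µg/µl. The treated group received 2 µl of an AAV carrying human NDST3 at the same site 5 days later. The promoter of the vector is a general viral one (CMV), so the transgene was not restricted to 1 cell type. H3K27ac had 2 libraries per group in 1 column, RNA-seq had 2 sham, 1 6-OHDA and 2 treated libraries, and ATAC-seq had 1 library per group. The labels do not say whether libraries came from separate animals, so a p-value covers only the spread between these libraries.

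Acetylation of lysine 27 on histone H3 neutralises the charge of the histone tail and is laid down mainly by the acetyltransferases p300 and CBP. It marks active promoters and enhancers and is removed by histone deacetylases. In brain tissue a promoter signal is an average over neurons, glia and vessel cells. Fewer cells of a type and less of the mark or of RNA per cell cannot be told apart in such bulk samples.

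The promoter windows of 5 member genes are shown because 4 of them (Srsf5, Alg13, Bzw1 and Mrps36) were among the 10 of largest ratio, and the window of Cartpt belongs to the member gene whose RNA fell most among the named genes. Each window runs from 250 bases before to 50 bases after a RefSeq start site on GRCm38.p6, 5′ to 3′ on the gene's strand. They are chr12:80945249-80945548 (+) for Srsf5, chrX:144317716-144318015 (+) for Alg13, chr1:58392648-58392947 (+) for Bzw1, chr13:100744610-100744909 (-) for Mrps36 and chr13:99900634-99900933 (-) for Cartpt. Capitals mark matches on either strand to short promoter motifs. TATAAA is the core of the box bound by TATA-binding protein, and CCAAT is bound by the factor NF-Y. GGGCGG is the GC box bound by Sp factors, and TGACGTCA is the cyclic AMP response element. CCGGAAGT is bound by ETS factors and TGANTCA by AP-1, and the consensus of NRF1 was searched as well.
Srsf5: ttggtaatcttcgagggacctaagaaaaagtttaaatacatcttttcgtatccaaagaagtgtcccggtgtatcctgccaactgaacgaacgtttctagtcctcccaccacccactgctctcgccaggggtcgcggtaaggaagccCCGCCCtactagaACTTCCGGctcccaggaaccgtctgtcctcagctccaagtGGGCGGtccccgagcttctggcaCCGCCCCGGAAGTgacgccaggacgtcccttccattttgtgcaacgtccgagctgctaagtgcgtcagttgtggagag
Alg13: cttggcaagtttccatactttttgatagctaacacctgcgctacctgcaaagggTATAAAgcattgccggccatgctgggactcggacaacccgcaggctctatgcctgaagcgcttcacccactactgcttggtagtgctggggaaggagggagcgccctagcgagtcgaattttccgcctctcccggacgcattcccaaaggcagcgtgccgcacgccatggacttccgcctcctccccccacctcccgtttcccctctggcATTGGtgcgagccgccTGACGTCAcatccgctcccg
Bzw1: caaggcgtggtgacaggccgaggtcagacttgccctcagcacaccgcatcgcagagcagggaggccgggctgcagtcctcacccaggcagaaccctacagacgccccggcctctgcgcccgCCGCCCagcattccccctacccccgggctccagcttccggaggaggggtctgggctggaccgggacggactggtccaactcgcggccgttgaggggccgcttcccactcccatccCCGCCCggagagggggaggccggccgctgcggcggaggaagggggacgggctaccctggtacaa
Mrps36: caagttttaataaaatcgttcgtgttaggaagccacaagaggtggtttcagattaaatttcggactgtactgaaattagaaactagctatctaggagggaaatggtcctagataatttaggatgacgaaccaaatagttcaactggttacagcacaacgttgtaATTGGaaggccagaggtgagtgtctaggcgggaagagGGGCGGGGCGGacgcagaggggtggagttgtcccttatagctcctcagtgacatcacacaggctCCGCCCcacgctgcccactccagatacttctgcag
Cartpt: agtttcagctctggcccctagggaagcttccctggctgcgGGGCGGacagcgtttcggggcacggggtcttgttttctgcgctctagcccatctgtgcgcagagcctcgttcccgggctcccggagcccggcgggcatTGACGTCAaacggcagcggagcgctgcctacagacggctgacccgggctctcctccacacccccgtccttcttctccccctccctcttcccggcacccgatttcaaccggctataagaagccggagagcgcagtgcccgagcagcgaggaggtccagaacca

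The Srsf5 window held 3 GC boxes and 2 ETS matches, and an ETS match and a GC box overlapped in it, as did a pair of GC boxes in the Mrps36 window. The Alg13 and Cartpt windows each held the full cyclic AMP response element. RefSeq windows were found for 671 of the 825 member genes, with windows on chromosome 18 left out. Their 879 windows had a median GC content of 60.3% and a median of 20 CpG sites. The 6748 windows of genes with regions but no gained region had 60.7% and 20, and the 32851 windows of all genes had 52.7% and 7. The GC box was found in 60.4% of member windows, 60.4% of windows of the other genes with a region and 35.7% of all windows. The ETS letters were in 8.53%, 8.06% and 3.89% of these, and NRF1 in 2.39%, 2.05% and 0.971%. TATAAA was in 5.57%, 7.02% and 13.6%, and TGANTCA in 4.55%, 4.89% and 7.81%. CCAAT was in 35.5%, 36.5% and 37.4%, and the cyclic AMP response element in 2.84%, 3.23% and 1.79%. The windows of member genes thus had a CpG-rich composition like that of the other genes with a region. These values describe windows at start sites, and the sequence of the gained regions themselves was not read.

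The gained regions stood apart by a low sham signal more than by a high 6-OHDA signal. Their median signal was 6.46 in sham, with quartiles of 3.92 and 9.49, while the other 10544 regions had a median of 15.6. In the 6-OHDA column the medians were 17.4 and 16.2, with quartiles of 11.4 and 23.6 in the gained regions. The highest 6-OHDA signal of a gained region was 66.8, while the highest in the table was 236. The median ratio was 2.35 and the highest 6.97. A ratio of at least 3 was seen in 140 gained regions and of at least 4 in 33. The signal is a normalised tag value whose scale the authors did not state, so its depth is unknown and no counting error can be given.

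**Figure D1:**
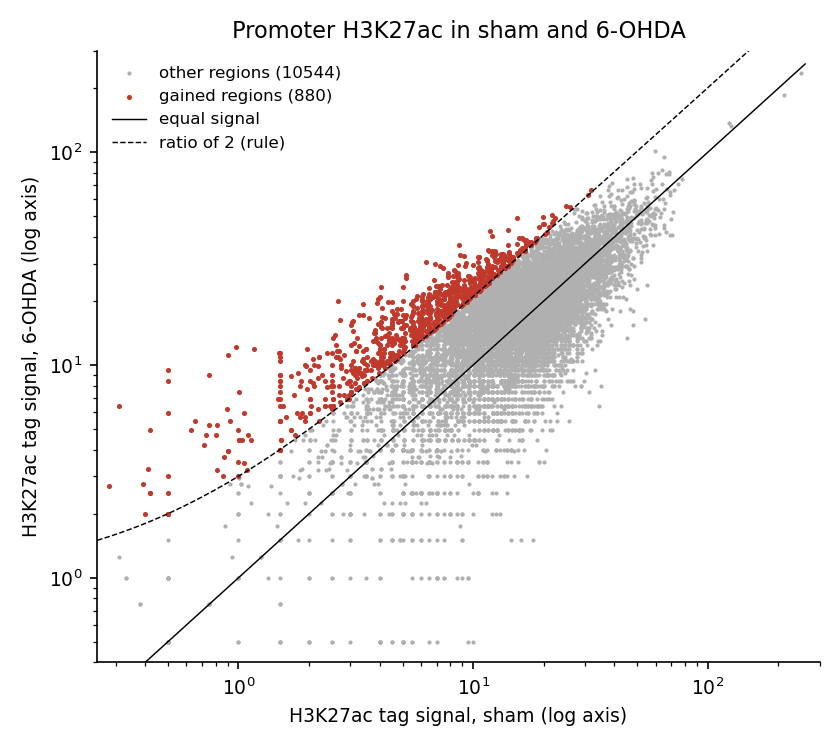
H3K27ac tag signal of each promoter region in sham (x axis) and 6-OHDA (y axis), both on log axes and in the authors' normalised units, with 1 point per region. The 880 gained regions (red) lie on or above the dashed line that the rule draws, and most have a sham signal below the table's median of 14.9.

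**Figure D2:**
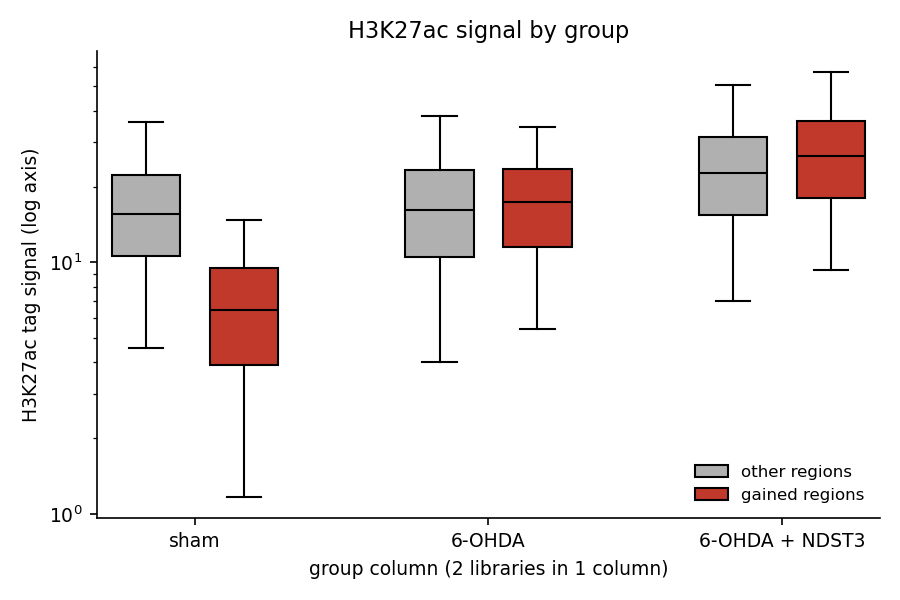
Box plots of the H3K27ac tag signal (log axis) in each group column for gained and other regions. Boxes span the quartiles with the median, and whiskers reach the 5th and 95th percentiles over regions, not over replicates. The gained regions differ most from the others in sham, with medians of 6.46 and 15.6.

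Just inside the threshold were regions of Utp18 (1.5 in sham and 4 in 6-OHDA) and Srsf5 (1.5 and 4), both with a ratio of 2. Just outside were Ldah (13.5 and 28.1), Idh1 (3.83 and 8.65) and Psme4 (20.5 and 42.0), all with a ratio of 1.998. The members thus continue without a gap into the other regions.

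The share of gained regions depended on the sham signal, which the rule used. Of regions with a sham signal above 2 and up to 5, 35.0% were gained, against 18.0% of those above 5 and up to 10 and 0.381% of those above 20 and up to 30. Across the 6-OHDA signal the share was flatter, from 6.42% above 2 and up to 5 to 9.74% above 20 and up to 30. Only 1.19% of regions with a 6-OHDA signal up to 2 were gained.

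Gained regions did not concentrate at 1 distance from the start site. The table itself is limited to promoters, with distances from -1000 to 943 bases. The median distance was -106.5 bases for gained and -122 for the other regions, where a minus sign means upstream. Within 200 bases of the start lay 456 gained regions (51.8%), against 48.5% of the others. Upstream of it lay 601 (68.3%), against 70.6%. The share that was gained ranged from 6.25% at -750 to -500 bases to 8.42% in the first 250 bases downstream. Gained regions were also short: 709 (80.6%) had the minimum width of 100 bases, against 70.7% of the others. These differences have no replicate error, since each group is 1 column.

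**Figure D3:**
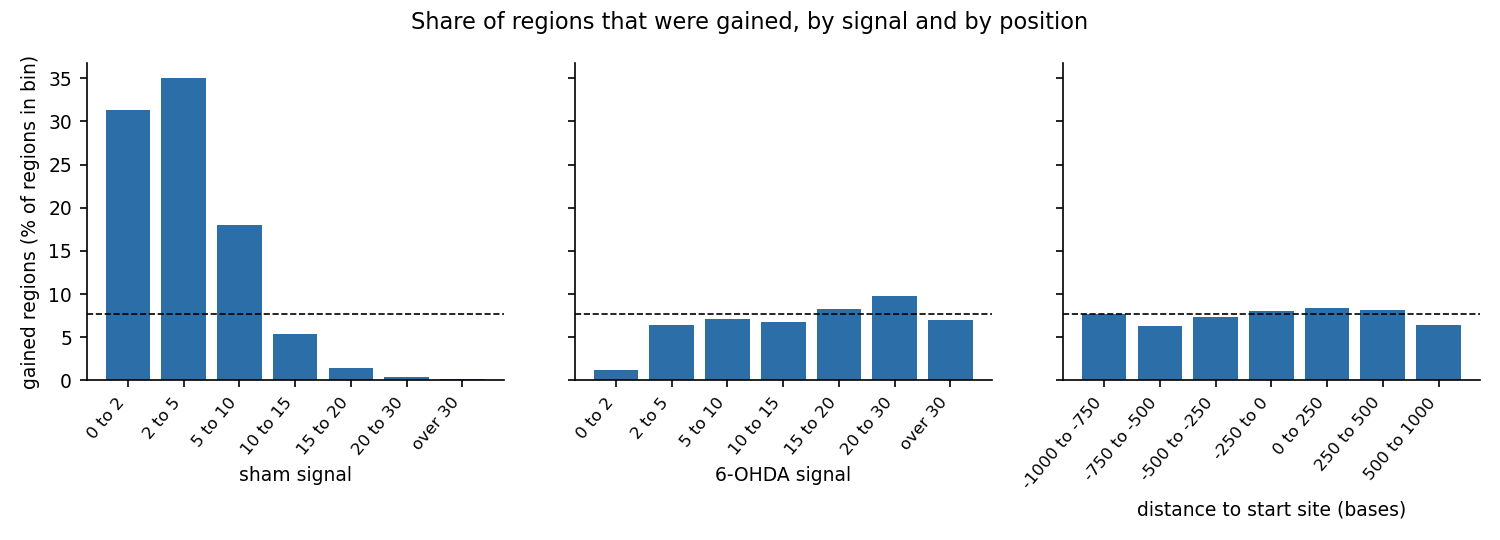
Bars give the percentage of regions in each bin that were gained, by sham signal, by 6-OHDA signal and by distance to the start site in bases, and the dashed line is the share over all regions (7.70%). The share is highest (35.0%) at a sham signal above 2 and up to 5 and lowest (0.185%) above 30, and it stays between 6.25% and 8.42% across distance.

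The 10 named regions of largest ratio lay at genes of varied function. Adat1, which encodes an adenosine deaminase that edits tRNA, came first, with 0.50 in sham, 9.45 in 6-OHDA and 15.4 with NDST3 at chr8:112718813-112718913. Its neighbours in that order were Mir7667, a microRNA gene (0.98, 12.2 and 12.7), and Srsf5, a splicing factor (0.90, 11.2 and 14.0). Alg13, needed for N-glycan synthesis, had 0.50, 8.45 and 8.95. These 4 signals in sham, and those of Gabra5 and Dcaf1 described next, were all below 1, where the added 1 outweighs the signal itself.

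Bzw1, a regulator of start codon choice in translation, had 1.17 in sham, 11.9 in 6-OHDA and 69.7 with NDST3, at -155 bases. Mrps36, named as a mitochondrial ribosomal protein, had 2.66, 20.1 and 61.3. Gabra5, the alpha-5 subunit of the GABA-A receptor, had 0.31, 6.45 and 27.1, and its region lay 97 bases downstream of the start. The list closed with Dcaf1, a substrate receptor of a ubiquitin ligase (0.75, 8.95 and 17.9), C1qtnf7, a secreted C1q-like protein (1.49, 11.4 and 23.6), and Parp11, an ADP-ribosyltransferase (1.51, 11.5 and 16.4). These 10 genes encode proteins of tRNA and mRNA processing, glycosylation, translation, neurotransmission and protein turnover, and a microRNA, with no single function among them.

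The gained regions of highest 6-OHDA signal had ratios near the threshold. Lrrc58 had 31.7 in sham, 66.8 in 6-OHDA and 80.6 with NDST3, a ratio of 2.07. Hdhd3 had 31.0, 63.1 and 88.2, and Fsbp had 24.9, 55.9 and 72.5. Hspa4l, a chaperone of the HSP110 family, had 25.8, 55.6 and 84.5, and Uap1, which makes UDP-N-acetylglucosamine, had 21.8, 50.7 and 63.0. None of these 5 was among the 10 of largest ratio.

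Most genes had a single gained region: 772 had 1, 51 had 2, and Cep350 and Zfp51 had 3. Cep350, a centrosomal protein, carried gained regions at -55, -616 and -732 bases, with 6-OHDA signals of 4.95, 34.0 and 28.6 and sham signals of 1.68, 12.3 and 7.43. Zfp51, a zinc finger protein, carried them at -272, -131 and 78 bases, with 6-OHDA signals of 24.6, 20.2 and 25.9 and sham signals of 10.1, 7.94 and 12.1. Neighbouring regions share their libraries and their gene. Of the member genes, 421 had another region that was not gained, 604 regions in all. The median ratio of these was 1.18, and 67.7% were above 1, while regions of genes with no gained region had a median of 1.04 and 53.0% above 1. Of the 604, 1.99% were lost by the 2-fold rule, against 5.03% of regions of genes with no gained region.

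With NDST3 treatment the signal of the gained regions was at least as high as in 6-OHDA in all 880, and this is a property of the table. No region of the 11424 had a lower NDST3 than 6-OHDA value, and 425 had equal values, 18 of them gained. It follows that the ratio of NDST3 to sham was at least 2 in each gained region, and that none was nearer to sham than to 6-OHDA. After each column was scaled to the same median, 620 regions met the rule. The NDST3 value was then below 6-OHDA in 254 of these, and nearer to sham in 8 (1.29%).

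The size of the NDST3 value still varied among gained regions. The median was 26.4, with quartiles of 18.0 and 36.6, against 22.7 in the other regions. The ratio (NDST3 + 1)/(6-OHDA + 1) had a median of 1.43, against 1.30, and was at least 2 in 140 gained regions (15.9%), against 10.99% of all regions. It was highest at Usp46, a deubiquitinase found at synapses, with 3.26 in sham, 12.4 in 6-OHDA and 142 with NDST3. Txlng had 0.81, 3.20 and 38.4, and Anks6 had 1.93, 5.45 and 54.5. Gm6787, a predicted gene, had 0.28, 2.70 and 27, and Ep400, the ATPase of a histone acetyltransferase complex, had 2.82, 11.2 and 89.2.

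At the other end, Ssr1, part of the endoplasmic reticulum translocon, had 13.0 in both 6-OHDA and NDST3, against 5.02 in sham. R3hdm1 (2.5), Bnip2 (7.45), P2rx6 (15.9) and R3hdm2 (5.95) also had identical values in both columns. The quotient of NDST3 and 6-OHDA matched a fraction with a denominator of at most 10, to within the rounding of the table, in 265 of the gained regions (30.1%) and in 28.1% of all regions. For NDST3 over sham this held in 73 (8.30%) and in 5.97% of all regions. At the regions of Txlng, Anks6, Gm6787 and Ep400, named above for a high NDST3 value, that value was a whole multiple of the 6-OHDA value. How the columns were derived from each other is not given in the sources used here, so the NDST3 column is not an independent check of the 6-OHDA column.

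Chromosome X held the highest share of gained regions. On it 43 of 294 regions were gained (14.6%), against 837 of 11126 (7.52%) on the autosomes, where shares ran from 4.99% on chromosome 7 to 11.02% on chromosome 19. Regions on X had a lower sham signal, with a median of 10.6 against 15.1, and the 6-OHDA medians were 12.6 and 16.4. Among regions with a sham signal above 5 and up to 10, 18.4% on X and 18.0% on autosomes were gained. Among those up to 5, the shares were 50% (24 of 48) and 33.1% (291 of 880), and among those above 10 and up to 15 they were 3.90% (3 of 77) and 5.46%. Lost regions made up 4.08% on X and 4.49% on autosomes.

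A gained region lay at -795 bases from the start of Xist, the RNA that coats the inactive X chromosome of female cells, with 6.97 in sham, 23.6 in 6-OHDA and 51.0 with NDST3. The study's animal methods describe adult female mice. In RNA-seq, however, 4 genes of chromosome Y (Ddx3y, Eif2s3y, Kdm5d and Uty) had between 687 and 5079 counts in every library, and Xist was not listed in a table that holds only genes with a count in every library. In scRNA-seq the cluster means of Xist were between 1.08 and 2.41 in both libraries, on a natural log scale. Ddx3y reached at most 0.00142 in the 6-OHDA library and 0.133 in the treated library. The H3K27ac and ATAC-seq tables held no region on chromosome Y. The part of the animals' sex in the X-linked gains was not tested.

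The RNA-seq of the member genes was independent of the rule. Of the 825 genes, 758 were matched by symbol and 11 by an older or newer symbol, 56 were not matched, and 7 did not pass the low-count filter, which left 762 tested. Their transcripts were abundant, with a median TPM (a transcript level per length, scaled to the library) of 18.5 to 22.6 over the 5 libraries. Genes with any region had 18.6 to 21.7, and all 19300 genes tested had 10.9 to 11.8. Library totals ran from 51003699 to 70533326 counts.

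The share of gained genes that were higher in 6-OHDA was close to that of all genes. By edgeR's quasi-likelihood test at a Benjamini-Hochberg adjusted p under 0.05, 138 of 762 (18.1%) were higher in 6-OHDA than in sham, against 18.8% of all genes tested. Of the same genes, 153 (20.1%) were lower, against 17.1%. Genes with any H3K27ac region had 18.1% higher and 20.8% lower. By the other rule, a 2-fold change with raw p under 0.05, 72 (9.45%) were higher and 64 (8.40%) lower, against 14.4% and 10.1% of all genes. Genes with any region had 9.71% and 9.16% by this rule, so the lower shares were not particular to member genes. The median log2 fold change was -0.07 for member genes and 0.00 for all genes. Leaving out sham replicate 1 left 0 member genes at adjusted p under 0.05 by edgeR, with 136 higher and 167 lower at raw p under 0.05, and leaving out sham replicate 2 left 0, with 126 and 139.

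RNA calls were about as frequent at large as at small H3K27ac ratios. Genes with a ratio of 3 or more in their region farthest from 1 numbered 125, of which 19.2% were higher and 19.2% lower in RNA. Where the ratio was between 2 and 3 the shares were 17.9% and 20.4% of 631 genes, and where it was at most 0.5 they were 17.3% and 18.0% of 444 genes. Across the 6722 tested genes with a region, Spearman's rho between the log2 H3K27ac ratio and the log2 RNA fold change was 0.00, and across member genes it was 0.03. The points share libraries within each assay and genes are not replicates, so this is a description.

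**Figure D4:**
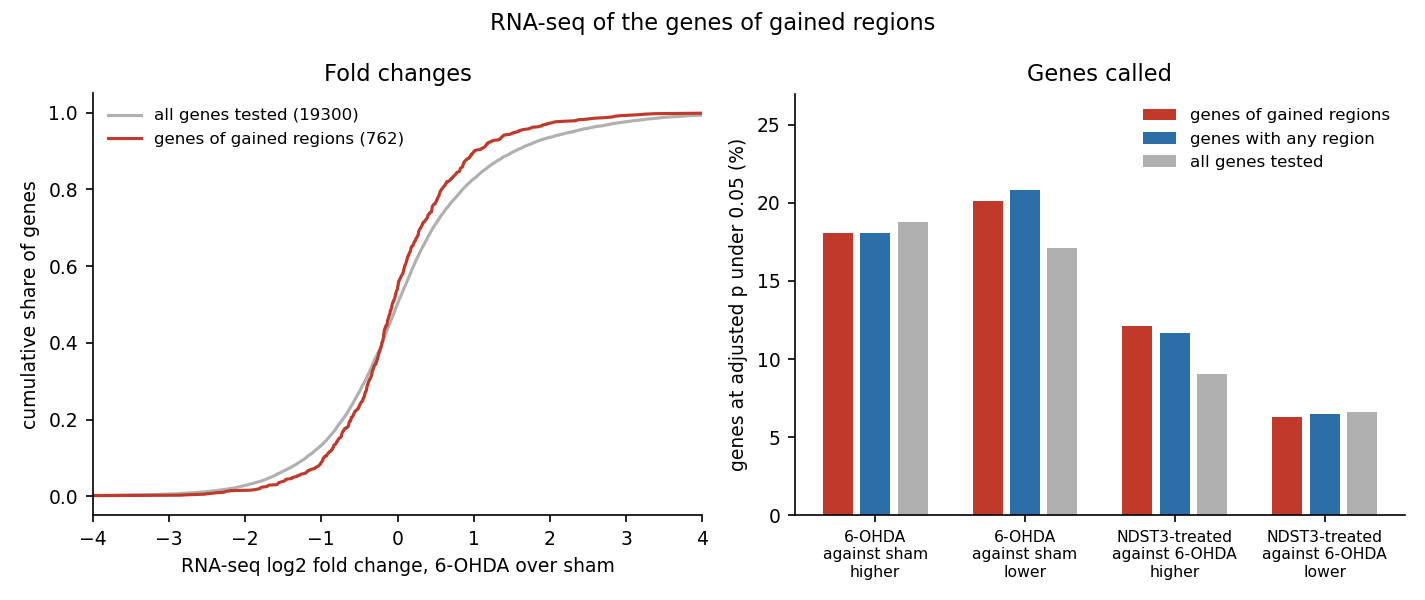
Left, cumulative share of genes by RNA-seq log2 fold change of 6-OHDA over sham, for the 762 tested genes of gained regions and all 19300 genes tested. Right, percentage of genes at an adjusted p under 0.05 (edgeR) in each direction for these, for genes with any H3K27ac region and for all genes. The bars of gained genes are close to those of genes with any region, as at 18.1% and 18.1% higher in 6-OHDA.

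Cell type markers moved strongly in the same RNA-seq comparison. Of the microglia and macrophage markers, 23 of 23 tested were higher in 6-OHDA, and their summed CPM (counts scaled to the library's total, not per length) was 4584 and 2759 in sham, 31542 in 6-OHDA and 10893 and 15951 with NDST3. Of the dopaminergic neuron markers, 17 of 18 were lower, with sums of 1342 and 1305 in sham, 267.7 in 6-OHDA and 501.3 and 440.5 with NDST3. Of the pan-neuronal and synaptic markers, 23 of 27 were lower, from 12166 and 13771 in sham to 5266 in 6-OHDA. Astrocyte markers were higher in 8 of 13 and lower in 1, oligodendrocyte lineage markers higher in 4 of 12, endothelium and mural markers higher in 8 of 13, and lymphocyte markers higher in 2 of 7. Th, which makes the dopamine precursor, had 115 and 135 CPM in sham, 2.15 in 6-OHDA, and 11.5 and 8.03 with NDST3. The part of these shifts in the RNA values of the member genes was not tested.

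Few cell type markers had any region in the table, so few could carry a gained region. None was found at the 24 microglia and macrophage, 16 lymphocyte, 13 astrocyte, 12 oligodendrocyte lineage, 13 endothelium and mural or 18 dopaminergic markers. These lists had 1, 0, 2, 1, 1 and 0 genes with any region in the table. Of 6 pan-neuronal and synaptic genes with a region, only Grin1 had a gained region (16.7%, against 11.4% of all genes with a region). Grin1, the obligatory subunit of NMDA receptors, had 3.94 in sham, 11.4 in 6-OHDA and 54.2 with NDST3.

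The named rises of member genes in RNA were led by Apobec1. This cytidine deaminase, which edits mRNA, had 5.63 and 2.62 CPM in sham, 70.0 in 6-OHDA, and 16.9 and 31.4 with NDST3. Its log2 fold change of 6-OHDA over sham was 4.09 ± 0.54 (SE, adjusted p = 0.00914 by edgeR). The 6-OHDA library was thus above all others, and the treated libraries lay between it and sham.

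Tspo, an outer mitochondrial membrane protein that is used as an imaging marker of activated glia, had 5.28 and 4.21 CPM in sham, 32.8 in 6-OHDA, and 10.2 and 15.4 with NDST3. It rose by 2.79 ± 0.29 on the log2 scale (adjusted p = 0.00823 by edgeR), and its region had 2.19, 9.90 and 39.6 in sham, 6-OHDA and NDST3. Cenpa, the histone variant of centromeres, had 0.21 and 0.41 CPM in sham and 5.07 in 6-OHDA, a log2 fold change of 4.004 ± 0.51. Ckap2, a spindle protein, had 0.93 and 0.91 CPM in sham and 6.66 in 6-OHDA, a change of 2.85 ± 0.35. The other named risers were Arhgap25, a GTPase-activating protein for Rac in leukocytes (3.24), Slco1a5, an organic anion transporter (3.17), and Pon3, a paraoxonase (2.70), given as log2 fold changes. In these 7 genes the 6-OHDA library was the highest of the 5, and the rule for named genes required it to lie outside the sham libraries.

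The named falls of member genes in RNA were led by Cartpt, although the rule gives all of them more H3K27ac in 6-OHDA. Cartpt, the precursor of the CART neuropeptide, had 117 and 71.0 CPM in sham, 5.13 in 6-OHDA, and 65.3 and 39.3 with NDST3. Its log2 fold change was -4.19 ± 0.52 (adjusted p = 0.00869 by edgeR), while its region had 2.70, 10.7 and 19.9 in sham, 6-OHDA and NDST3. Plcxd2 had 184 and 252 CPM in sham, 40.8 in 6-OHDA, and 228 and 156 with NDST3, a log2 fold change of -2.42 ± 0.34. The 6-OHDA library was again apart from the other 4, now below them.

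Htr4, a serotonin receptor, had 12.9 and 15.4 CPM in sham, 3.02 in 6-OHDA, and 13.0 and 9.55 with NDST3, a log2 fold change of -2.23 ± 0.29. Kcnh7, a potassium channel, had 24.9 and 40.9 in sham and 8.66 in 6-OHDA, a change of -1.93 ± 0.44. BC030500 (-2.37), Zfp804b, a zinc finger protein (-2.26), Myh7, a myosin heavy chain (-2.19), and Fam43b (-1.87) fell too. In these 8 genes the 6-OHDA library was the lowest of the 5, and the same rule required it to lie outside the sham libraries. The call of each of these 15 genes was lost when either sham library was left out, and none of them changed direction.

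**Figure D5:**
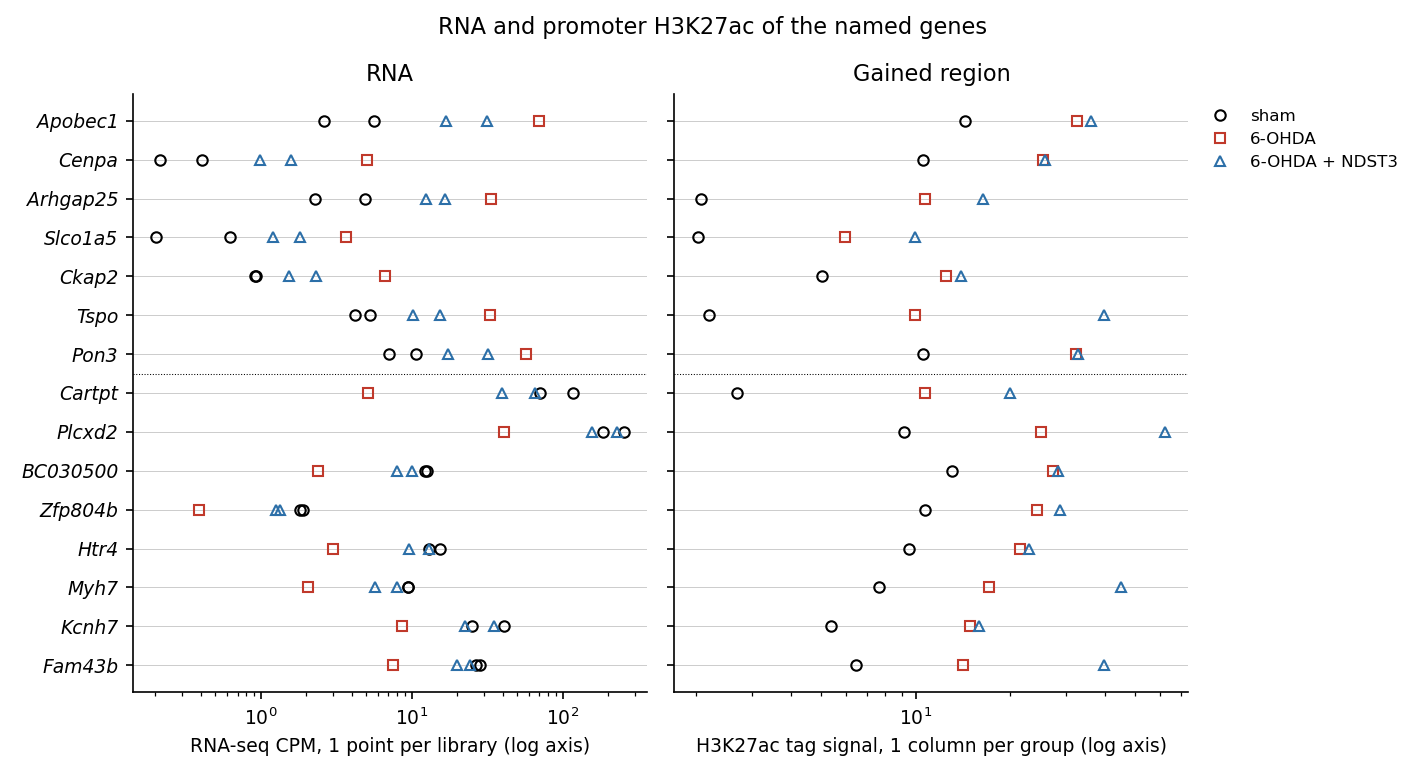
RNA-seq CPM per library (left, log axis) and H3K27ac tag signal of the gained region per group column (right, log axis) for 7 member genes with the named rises and 8 with the named falls in RNA. On the right, 6-OHDA lies above sham for every gene because the rule chose it. On the left, the rule for named genes likewise required 6-OHDA to lie outside the sham libraries. It is highest of all libraries in the upper 7 and lowest in the lower 8.

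Of 21 chromatin acetylation genes with a region, 4 (19.0%) carried a gained region, against 11.4% of all genes with a region. Hdac5, a class IIa deacetylase, had a signal of 9.96 in sham, 29.6 in 6-OHDA and 50.4 with NDST3. Its RNA had 189 and 201 CPM in sham, 132 in 6-OHDA, and 169 and 164 with NDST3, a log2 fold change of -0.57 ± 0.11 (adjusted p = 0.0181 by edgeR). Signals in sham, 6-OHDA and NDST3 were 2.79, 8.70 and 14.7 at Hdac8 and 5.52, 17.7 and 25.6 at Sirt6, both deacetylases. At Kat6a, an acetyltransferase, they were 8.37, 23.6 and 35.4. The rule places 6-OHDA above sham, and no region had a lower NDST3 than 6-OHDA value, so this order is not a result. The RNA log2 fold changes of Hdac8, Sirt6 and Kat6a were -0.28 ± 0.14, -0.27 ± 0.21 and 0.36 ± 0.11, and none passed the adjusted p. Of 30 genes of that list tested in RNA-seq, 4 were higher and 9 lower in 6-OHDA, where 18.8% and 17.1% of all genes were.

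Grin1 and Synj1, which act at synapses, both fell in RNA. Grin1 had 340 and 429 CPM in sham, 128 in 6-OHDA, and 341 and 291 with NDST3, with a log2 fold change of -1.59 ± 0.21 (adjusted p = 0.00900 by edgeR). Synj1, a phosphatase of synaptic vesicle recycling that is mutated in a form of inherited Parkinson disease, had 356 and 390 in sham, 134 in 6-OHDA, and 311 and 304 with NDST3. It fell by 1.48 on the log2 scale (SE 0.13), while its region had 10.8, 28.1 and 39.4 in sham, 6-OHDA and NDST3. It was 1 of 6 genes with a region on the inherited Parkinson disease list (16.7%, against 11.4% of all genes with a region).

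In heparan sulfate synthesis, to which NDST3 belongs as an N-deacetylase and N-sulfotransferase, gained regions lay at Ndst4, a close relative, and Hs6st3, a 6-O-sulfotransferase. These were 2 of 9 genes with a region (22.2%, against 11.4% of all genes with a region). The Ndst4 region had 8.58 in sham, 27.1 in 6-OHDA and 43.2 with NDST3, and its RNA had 22.1 and 37.7 CPM in sham, 6.20 in 6-OHDA, and 39.5 and 14.3 with NDST3. The treated libraries of Ndst4 spanned the range of sham, and its adjusted p was 0.0680. Hs6st3 had 4.52, 11.5 and 13.4 in H3K27ac, and its RNA fell by 1.47 on the log2 scale (SE 0.39, adjusted p = 0.0403 by edgeR). Of the 24 genes of the list, 8 were higher and 4 lower in 6-OHDA, against 18.8% and 17.1% of all genes.

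The interferon list had gained regions at 2 of 8 genes with a region (25%, against 11.4% of all genes with a region). Both were antiviral effectors on chromosome 19 whose RNA rose. The count covers only that list, and Ifit2, which is not on it, also had a gained region. Ifit1 had a signal of 11.6 in sham, 28.4 in 6-OHDA and 28.9 with NDST3, and a log2 RNA fold change of 1.39 ± 0.26. Ifit3 had 4.20, 9.65 and 24.6, and a change of 0.96 ± 0.15. Of 18 genes of that list tested, 16 were higher in 6-OHDA, against 18.8% of all genes.

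DNA repair had 3 of 10 (30%, against the same 11.4%), which were Mre11a of the break-sensing complex, Xrcc4 of end joining and Msh6 of mismatch repair. Only Xrcc4 passed in RNA, with a log2 fold change of 0.95 ± 0.18. Cdkn1b, a cyclin-dependent kinase inhibitor, was the 1 gained gene of 5 in the cell cycle list, with 11.7, 24.4 and 36.8 and a change of 0.46 ± 0.14 that did not pass (adjusted p = 0.0572 by edgeR). Ppargc1a, a coactivator of mitochondrial genes, was the 1 of 10 in the mitochondrial dynamics and autophagy list, and its RNA changed by -0.95 ± 0.14. None of the 8 immediate early or 11 antioxidant and stress response genes with a region had a gained region. At the 11.4% of all genes with a region, few would have one among so few genes, and this was not tested.

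Against 6-OHDA, the NDST3-treated libraries had 92 member genes higher (12.1%) and 48 lower (6.30%) at an adjusted p under 0.05, against 9.06% and 6.59% of all genes tested and 11.7% and 6.49% of genes with any region. By the 2-fold rule 45 (5.91%) were higher and 35 (4.59%) lower, against 7.29% and 8.37% of all genes and 6.31% and 4.64% of genes with any region. This comparison shares the single 6-OHDA library with the one against sham. Without sham replicate 1, sham replicate 2 or NDST3-treated replicate 1, 0 member genes passed the adjusted p by edgeR in either direction. At raw p under 0.05 these left 142 higher and 102 lower, 143 and 103, and 157 and 100. Without NDST3-treated replicate 2 there were 93 and 48 at adjusted p.

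Among member genes past the adjusted p by edgeR that the rule for named genes allows, the largest rises with NDST3 were at genes low in 6-OHDA, namely Cartpt (log2 fold change 3.35 ± 0.50), Plcxd2 (2.23 ± 0.33), BC030500 (1.91 ± 0.23), Htr4 (1.90 ± 0.28) and B230303A05Rik (1.76 ± 0.32). Among those past the adjusted p, the largest falls were at Fbln5, an elastic fibre protein (-1.90 ± 0.38), Il3ra, a cytokine receptor (-1.83 ± 0.42), Ckap2 (-1.78 ± 0.34), Cav1, the caveolae coat protein (-1.52 ± 0.27), and Fn1, fibronectin (-1.52 ± 0.26). Fn1 had 155 and 100 CPM in sham, 764 in 6-OHDA, and 271 and 261 with NDST3. Of the endothelium and mural markers, 9 of 13 were lower with NDST3 in the same comparison, and their part in these falls was not tested.

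Between the NDST3-treated libraries and sham, 0 member genes were higher and 0 lower at adjusted p under 0.05 by edgeR, against 0% of all genes in both directions. At raw p under 0.05 by edgeR, 64 of 762 were higher and 27 lower, against 1895 and 848 of all 19300 genes tested. Of the 6722 tested genes with any region, 560 were higher and 238 lower, so the excess of higher genes was not particular to member genes. DESeq2 called 23 and 2 member genes at adjusted p under 0.05, and its share over all genes was not counted. By the 2-fold rule 22 (2.89%) were higher and 0 lower, against 4.78% and 1.08% of all genes and 2.05% and 0.164% of genes with any region.

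The genes of the regions with the largest H3K27ac ratios showed no shared RNA direction. Bzw1 was higher in 6-OHDA (log2 fold change 0.65 ± 0.13, adjusted p = 0.0202 by edgeR), while Gabra5 (-0.90 ± 0.20, adjusted p = 0.0241) and Dcaf1 (-0.70 ± 0.16, adjusted p = 0.0288) were lower by edgeR. Gabra5 had 25.2 and 32.0 CPM in sham, 15.3 in 6-OHDA, and 28.3 and 25.9 with NDST3. Adat1 (-1.38 ± 0.49), C1qtnf7 (1.90 ± 0.57), Alg13 (0.55 ± 0.22), Parp11 (-0.37 ± 0.15), Mrps36 (-0.07 ± 0.14) and Srsf5 (0.04 ± 0.21) did not pass. Of the regions of highest 6-OHDA signal, Lrrc58 (0.54 ± 0.12) was higher and Hspa4l (-1.27 ± 0.16) lower.

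Among member genes on chromosome X, 38 were tested in RNA-seq, of which 7 (18.4%) were higher and 14 (36.8%) lower in 6-OHDA, with a median log2 fold change of -0.32. Of the 198 tested genes with any region on X, 17.7% were higher and 28.3% lower, while 18.8% and 17.1% of all genes tested were.

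Chromatin accessibility near the gained regions was compared in ATAC-seq. ATAC-seq marks open DNA by transposase insertion, and 139 ATAC regions of 101 member genes lay within 2000 bases of a gained region of the same gene. Of the 136 with values in all groups, 5 (3.68%) were at least 2-fold higher in 6-OHDA than in sham, against 4.58% of all 3537 ATAC regions, and 6 (4.41%) were at least 2-fold lower, against 5.06%. The median ratio was 1.10, against 1.08 over all regions. With NDST3 against 6-OHDA, 5 (3.68%) were higher and 3 (2.21%) lower, against 4.41% and 3.53%. There was 1 library per group and no test.

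Only 21 ATAC regions shared a base with a gained region, of which 3 (14.3%) were 2-fold higher and 1 (4.76%) lower in 6-OHDA. Of the 379 with values that shared a base with any H3K27ac region, 3.43% were higher and 2.90% lower, and of all ATAC regions 4.58% and 5.06%. No test was possible on these counts with 1 library per group. The ATAC regions highest in 6-OHDA relative to sham were at Chad, a cartilage matrix protein (5.40 in sham, 19.5 in 6-OHDA and 16.5 with NDST3), Bmpr2, a BMP receptor (6.4, 17 and 5.5), Klhl38 (2.5, 7 and 4), Fbxl18, a ubiquitin ligase subunit (4.9, 12 and 11), and Lhpp, a phosphatase (12.7, 27.8 and 31.2). Those lowest relative to sham were at Irak3, an inhibitor of Toll-like receptor signalling (19.2, 3.5 and 10.5), and H4c16, a histone H4 gene (8.9, 2 and 6). Ttpal (5.4, 1 and 2), 4930480K23Rik (11.3, 3 and 4) and Egfem1 (33.4, 10.5 and 9) were also lower. At Irak3 the gained region had 1.51, 5.45 and 12.4 in H3K27ac, so the assays moved in opposite directions there.

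In scRNA-seq the member genes were spread over the clusters like other genes. The table lists means of 9 clusters in the 6-OHDA and the treated library, without sham. Of 767 member genes listed, 571 (74.5%) had a mean of at least 0.1 in a cluster, on a natural log scale, against 74.9% of genes with any region. Their mean was highest in cluster 2 for 183 genes (32.1%) and in cluster 7 for 91 (15.9%), against 33.0% and 16.4% of genes with any region. Cluster 5 followed with 65 (11.4%), against 9.49%.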

How the data were processed

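The tables deposited by the authors were used as given. Read counts per gene, with FPKM and TPM values normalized by the authors for length and depth, cover 5 RNA-seq libraries. The H3K27ac and ATAC-seq tag signal was deposited by the authors per region and group, in a normalization not given in the sources used here. ATAC-seq peaks were called with MACS2 in the study, and the peak caller for H3K27ac is not given in the sources used here. The scRNA-seq cluster means were deposited by the authors as values that fit a natural log of the normalized count plus 1. The labels name mm10, but scaffold names in the region tables are those of GRCm39. Of 6747 regions of genes with 1 RefSeq start, the implied start lay within 1000 bases of the GRCm38 start in 234, so region coordinates are given as deposited and no sequence was read with them.

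Ratios were taken after adding 1. The members and gene lists were chosen with earlier results of these data known. Counts were analysed over all 5 libraries with edgeR 4.0.16 (R 4.3.3), TMM factors, filterByExpr, the quasi-likelihood test and Benjamini-Hochberg adjustment over 19300 genes. There were 2 residual degrees of freedom, and the single 6-OHDA library was assumed to vary like the other groups. Each SE was derived from the test, as the absolute log2 fold change divided by the square root of its F statistic. The alternatives were limma 3.58.1 on FPKM with a pseudocount of 1 or 0.1 before the log2, DESeq2 1.42.0, RLE size factors, no filter, a fit of only the groups compared, a replicate block, and each replicate left out. The fit was tested on simulated counts of 19300 genes, of which 200 were changed in the 6-OHDA library. For 6-OHDA against sham, the adjusted p rule recovered 74.5% of these with 6 false calls. The 2-fold rule with raw p recovered 93% with 355 false calls. For NDST3-treated against 6-OHDA the values were 73% with 7 false calls and 93% with 355.

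Named regions are the 10 of largest ratio, the 5 of highest 6-OHDA signal, the 5 at each end of NDST3 relative to 6-OHDA, the genes with most regions and list members with a gained region. Named RNA-seq genes are the 8 largest rises and 8 largest falls (5 and 5 with NDST3) among genes that passed the adjusted p of 0.05, averaged 1 CPM or more, and had libraries of the groups that did not overlap. In ATAC-seq the 5 largest changes each way are named. Any gene of these rules that is missing from the text is not reported here.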

Additional observations from a re-analysis of the deposited data

How the results depend on the processing

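The number of gained regions was 2515 at 1.5-fold and 140 at 3-fold, and between 620 and 1008 under other pseudocounts, signal minima and column scalings. The share of them nearer to sham in the NDST3 column was 0% except with columns scaled to equal medians (1.29%) or equal sums (1.63%). At 1.5-fold, 27 ATAC regions of member genes were higher and 19 lower, and 3 and 1 when matched by a shared base. For 6-OHDA against sham, leaving out 1 replicate gave 0 to 137 higher and 0 to 166 lower member genes, and other tools and filters kept both counts within 1.5 times. For NDST3-treated against 6-OHDA the ranges were 0 to 93 and 0 to 48, with 0 and 0 when only the libraries of these groups were fitted, 139 and 93 by DESeq2, and 20 lower by limma on log2(FPKM + 0.1). For NDST3-treated against sham they were 0 to 2 and 0 to 1, with 23 and 2 by DESeq2. The cause of these differences was not tested.

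Replicate numbers were not used as pairs in the main fit. The deviations of same-numbered sham and NDST3-treated libraries correlated at -0.432 over genes. With 2 libraries in each of these groups, this cannot show whether same-numbered libraries were handled together. With the replicate block, 35 and 45 member genes were higher and lower in 6-OHDA than in sham, and 0 and 0 passed in both NDST3 comparisons. With the pairing crossed, chosen after seeing the data, the counts were 149 and 165, 126 and 79, and 24 and 0. Also chosen after seeing the data, 19.2% and 19.2% of genes of regions with a ratio of at least 3 were higher and lower in 6-OHDA than in sham, 18.3% and 20.1% with a sham signal of at least 5, and 18.1% and 19.2% outside chromosome X. These are subsets of the member genes and were not tested against them. The depth of the H3K27ac and ATAC-seq values is unknown, and they have no replicate error.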

Other observations

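Gene families with gained regions were compared with the 11.4% of all genes with a region that had one. Mitochondrial ribosomal proteins had 8 of 38 (21.1%), RAB GTPases and their exchange and activating factors 9 of 47 (19.1%), translation factors 7 of 37 (18.9%), solute carriers 19 of 122 (15.6%) and microRNA and small RNA genes 14 of 90 (15.6%). Zinc finger proteins had 34 of 306 (11.1%), cytosolic ribosomal proteins 5 of 44 (11.4%), splicing and mRNA binding proteins 6 of 57 (10.5%), oxidative phosphorylation subunits 5 of 58 (8.62%) and the ubiquitin pathway 10 of 136 (7.35%). These counts were not tested. In RNA-seq the cytosolic ribosomal proteins were higher in 6-OHDA in 74 of 85 genes by edgeR, while 4 of 78 mitochondrial ribosomal proteins were higher and 6 lower.

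Slc6a4, the serotonin transporter, and Tph2, which makes serotonin in the brain, were chosen after their values were seen. Slc6a4 had 124 and 46.3 CPM in sham, 0.27 in 6-OHDA, and 52.3 and 44.2 with NDST3. Tph2 had 165 and 66.6, 0.95, and 70.9 and 59.6. The cell bodies of serotonin neurons lie in the raphe nuclei, outside the injected site, and whether the libraries hold the same dissected tissue was not tested.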
